A study of Mus musculus with 6 samples.

Results

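The interleukin-1 family genes described here are the 6 genes Il1a, Il1b, Il1rn, Il18, Il18bp and Il1rap, out of 55335 mouse Ensembl gene identifiers in the deposited table. They are ligands of the family, soluble inhibitors and a shared receptor subunit, and were chosen with earlier results of these data known. Other ligands of the family are described further below and are not in the counts of these genes. All 6 were found, and 5 of them averaged 1 FPKM or more over the 6 libraries, the minimum for testing. Il18bp did not. FPKM counts fragments relative to the length of the transcript and to all mapped fragments of the library. Genes can be compared with each other only as far as the length assigned to each is right, and those lengths are unknown. RNA was taken from RAW264.7 cells, a wild-type mouse macrophage line. Every culture received lipopolysaccharide (LPS), a bacterial cell wall component sensed by TLR4, at 200 ng/ml for 8 h. The LPS group (3 libraries) had no other treatment. The LPS plus ultrasound group (3 libraries) was also exposed within those hours to 10 min of pulsed ultrasound of 1 MHz at 50 mW/cm², with a duty cycle of 20%, pulses of 200 µs and a repetition frequency of 1 kHz. Both groups thus carry the LPS stimulus. Induction by LPS was not measured, since unstimulated cells are not analysed here. The single comparison asks what ultrasound does to RNA levels in LPS-stimulated cells. Whether a group's 3 libraries are separate cultures is not in the labels. P-values therefore measure only how these libraries vary, which may be technical variation, and all results rest on 1 cell line.

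IL-1α and IL-1β, the products of Il1a and Il1b, bind the same receptor, which signals through MyD88 and IRAK kinases to NF-kB once the accessory protein IL-1RAP has joined. The receptor antagonist encoded by Il1rn occupies that receptor without recruiting the accessory protein, and IL-18BP captures IL-18 in solution. IL-1β and IL-18 are made as inactive precursors that caspase-1 cleaves after an inflammasome has assembled around the adaptor ASC. IL-1α is active without that step. In macrophages Il1a and Il1b RNA are strongly induced by LPS, while Il18 RNA is present before stimulation. RAW264.7 cells are known for lacking ASC.

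The upstream sequences of Il1a, Il1b and Il18, the cytokine genes, and of Il1rn, the antagonist gene on the chromosome of Il1a and Il1b, are shown so that agonist and antagonist can be read side by side. Each is the 250 bases before a RefSeq start in GRCm38.p6, 5′ to 3′ on the strand of the gene. Capitals mark matches, on either strand, to the motifs searched. For C/EBP factors, which drive Il1b in macrophages, the letters were TTNNGNAA. For the myeloid factor PU.1 the letters were GAGGAA. For AP-1, the Fos and Jun dimer, the search used TGANTCA. For the TATA box, which positions the start of transcription, it used TATAAA. The kappa-B consensus and the interferon-stimulated response element were searched as well. In Il1a the C/EBP match overlaps the PU.1 match.
Il1a, chr2:129309973-129310222, minus strand: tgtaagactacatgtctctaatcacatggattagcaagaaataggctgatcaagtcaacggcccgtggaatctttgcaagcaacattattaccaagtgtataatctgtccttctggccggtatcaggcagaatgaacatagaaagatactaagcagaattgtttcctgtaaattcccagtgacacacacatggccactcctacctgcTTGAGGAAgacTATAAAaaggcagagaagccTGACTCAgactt
Il1b, chr2:129371140-129371389, minus strand: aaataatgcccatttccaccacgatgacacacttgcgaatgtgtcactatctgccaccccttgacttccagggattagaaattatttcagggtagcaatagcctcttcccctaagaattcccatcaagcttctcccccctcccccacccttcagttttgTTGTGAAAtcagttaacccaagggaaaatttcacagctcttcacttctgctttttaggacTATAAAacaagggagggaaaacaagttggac
Il18, chr9:50554450-50554699, plus strand: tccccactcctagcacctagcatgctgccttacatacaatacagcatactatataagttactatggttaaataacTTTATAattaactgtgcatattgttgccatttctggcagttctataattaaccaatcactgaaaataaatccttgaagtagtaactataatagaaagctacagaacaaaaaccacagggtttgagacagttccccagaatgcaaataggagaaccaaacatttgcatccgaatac
Il1rn, chr2:24345041-24345290, plus strand, before the second of 3 RefSeq starts: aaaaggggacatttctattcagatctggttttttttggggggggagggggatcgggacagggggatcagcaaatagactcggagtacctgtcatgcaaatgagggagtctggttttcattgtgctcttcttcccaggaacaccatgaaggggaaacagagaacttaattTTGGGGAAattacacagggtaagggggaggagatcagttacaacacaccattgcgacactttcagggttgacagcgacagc

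Il1a and Il1b each had a forward TATAAA close to the start, at -32 to -27 and -31 to -26 counted from the start, and a C/EBP match further upstream, at -43 to -36 and -91 to -84. Of 32851 such windows, 12.4% held TATAAA and 36.8% the C/EBP letters on either strand. Il1a also held an AP-1 match at -12 to -6 (6.75% of windows) and the PU.1 letters (23.3%). In Il18 the single match was TATAAA on the reverse strand at -175 to -170. The Il1rn window shown held a C/EBP match at -81 to -74. The window before the first Il1rn start, not shown, held an AP-1 match at -141 to -135, and the Il1rap window, also not shown, held 0 of the motifs. The kappa-B consensus, found in 7.25% of windows, and the interferon-stimulated response element, found in 2.98%, were in 0 of the 8 windows of the 6 genes. These matches describe letters and not bound sites. The build of the authors' alignment is not given in the sources used here, so these coordinates are those of RefSeq alone.

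The libraries carried macrophage RNA. Of 11 macrophage markers, 10 averaged 1 FPKM or more, and the sums of all 11 were 2731 to 2964 FPKM with LPS and 2776 to 3029 with ultrasound. None of 9 skeletal muscle, 6 fibroblast, 6 neutrophil, 5 keratinocyte or epithelial, 4 endothelial, 5 T cell and 3 B cell markers reached that level, and of 5 dendritic cell markers only Ccr7 did, at a mean of 1.17 FPKM. The summed endothelial markers were 0.304 to 0.588 FPKM with LPS and 0.702 to 1.06 FPKM with ultrasound, and the part of such low signals in the results was not tested. All epithelial markers were listed at 0. LPS library 2 stood apart, at -28.8 on the first principal component (41.9% of the variance) against -2.03 to 17.7 for the other 5. It was the highest of the 6 libraries for 27.6% of the 11270 tested genes. Because it is also the highest library for Il1a, Il1b, Il1rn, Il18 and, narrowly, Il1rap, values without it are given beside each of these genes. In bulk RNA, fewer cells that express a gene and less RNA per cell cannot be told apart either.

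Il18 was the highest of the 6 genes on average in both groups, followed by Il1a. With LPS the order was Il18 (55.6 ± 10.1 FPKM, SD, n = 3), Il1a (42.2 ± 30.9), Il1b (17.7 ± 16.3), Il1rn (6.25 ± 1.75), Il1rap (3.28 ± 0.0640) and Il18bp (0.608 ± 0.198). The ranges of neighbours overlapped from Il18 down to Il1rn, and Il1a exceeded Il18 in LPS library 2. Il1rn, Il1rap and Il18bp were separated from each other in every LPS library. With ultrasound the order was Il18 (43.1 ± 3.99 FPKM, SD, n = 3), Il1a (17.9 ± 6.37), Il1rn (5.46 ± 1.03), Il1b (4.70 ± 2.47), Il1rap (2.69 ± 0.128) and Il18bp (0.705 ± 0.164). Il1b and Il1rn thus stood in opposite orders of means in the groups, but their ranges overlapped in both. With ultrasound the other neighbours did not overlap.

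**Figure D1:**
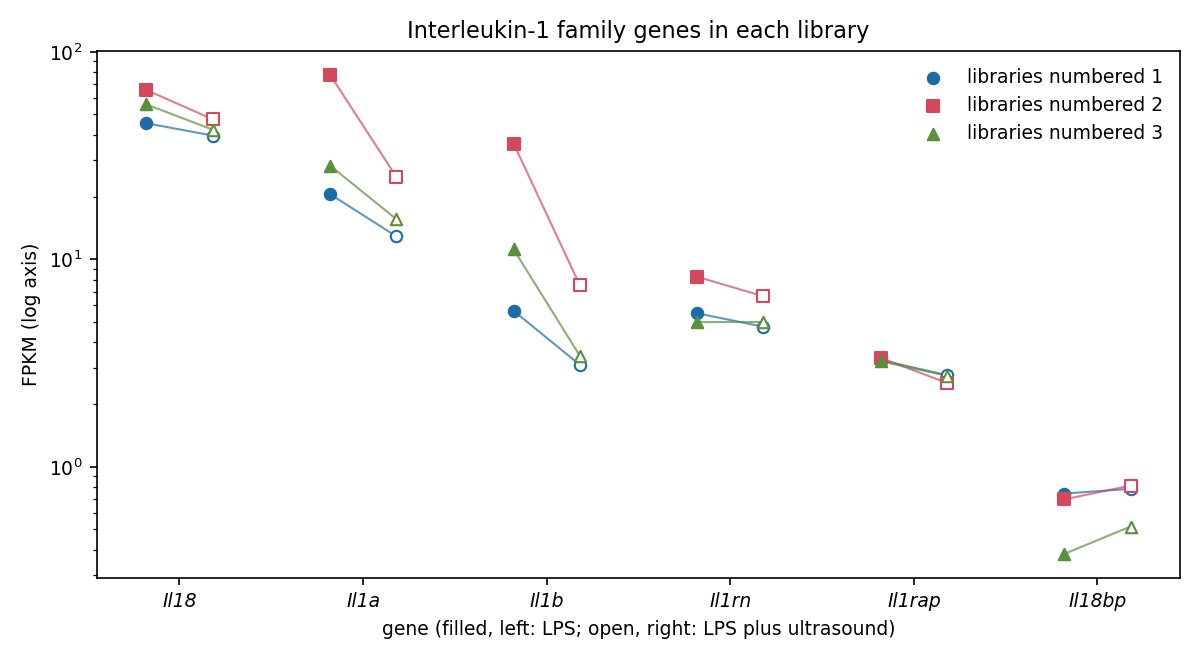
FPKM (log axis) of each gene in each library, with filled symbols for LPS, open symbols for LPS plus ultrasound, and lines joining libraries that share a number. The lines of Il1a and Il1b slope down in all 3 pairs and are steepest for the libraries numbered 2, where Il1b stands at 36.2 and 7.54 FPKM, while those of Il18bp slope up, from 0.381 to 0.517 FPKM in the third pair.

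None of the 5 tested genes passed limma at a Benjamini-Hochberg adjusted p of 0.05, a threshold that 2 of 11270 genes (0.0177%) passed. With the replicate number as a block, which uses the differences within same-numbered pairs, 13 genes (0.115%) passed and still 0 of the 5. The labels do not state that same-numbered libraries are pairs. All 5 had a log2 fold change below 0, as did 53.9% of all tested genes, and their median was -0.35 against -0.02 over all tested genes. Il1a, Il1b, Il18 and Il1rap, 4 of the 5, were lower with ultrasound in all 3 pairs, against 30.9% of all tested genes. The levels of Il1a, Il1b and Il18 had Pearson correlations of 0.963 to 0.993 with each other over the 6 libraries, so these genes are not separate results. At an unadjusted limma p below 0.05, 2 of the 5 were lower (Il18 and Il1rap; 9.16% of all tested genes), and 4 of the 5 were with the block (17.1%). Only Il1rap had groups that did not overlap, a pattern found for 13.4% of all tested genes in the lower direction. Each log2 fold change is the mean log2(FPKM + 1) with ultrasound less that with LPS alone. The added 1 shrinks the values of low genes.

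Il1b, which encodes the caspase-1-dependent cytokine IL-1β, had the lowest fold change of the 6 genes. Its levels were 5.65, 36.2 and 11.2 FPKM in LPS libraries 1 to 3 and 3.11, 7.54 and 3.44 FPKM in ultrasound libraries 1 to 3. The ultrasound values were below the LPS value of the same number each time, but ultrasound library 2 lay above LPS library 1, so the groups overlapped. Within pairs the ultrasound level was 0.550, 0.208 and 0.308 times the LPS level. The log2 fold change was -1.42 ± 0.62 (SE; 95% interval -2.92 to 0.07; adjusted p = 0.34 by limma and Benjamini-Hochberg, or 0.091 blocked by pair). It was the 6th lowest of the 11270 tested genes. Without LPS library 2 it was -0.74, and without both libraries numbered 2 it was -1.08 (adjusted p = 0.57 and 0.27 by limma and Benjamini-Hochberg).

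Il1a, which encodes IL-1α, followed the same order of libraries. It stood at 20.6, 77.7 and 28.3 FPKM in LPS libraries 1 to 3 and at 12.9, 25.1 and 15.7 FPKM in ultrasound libraries 1 to 3. Library 2 was the highest of each group, and only ultrasound library 2 reached into the LPS range. Within pairs the ultrasound level was 0.627, 0.323 and 0.553 times the LPS level. The log2 fold change was -1.01 ± 0.49 (SE; 95% interval -2.18 to 0.15; adjusted p = 0.37 by limma and Benjamini-Hochberg, or 0.087 blocked by pair), the 23rd lowest of all tested genes. It was -0.47 without LPS library 2 and -0.72 without both libraries numbered 2 (adjusted p = 0.605 and 0.25 by limma and Benjamini-Hochberg).

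Il18, which encodes the precursor of the interferon-gamma-inducing cytokine IL-18, differed less and varied less. Levels were 45.3, 65.6 and 55.8 FPKM in LPS libraries 1 to 3 and 39.6, 47.4 and 42.2 FPKM in ultrasound libraries 1 to 3. Each ultrasound value was below the LPS value of the same number, and the groups overlapped only through LPS library 1 and ultrasound library 2. The log2 fold change was -0.35 ± 0.14 (SE; 95% interval -0.67 to -0.02; adjusted p = 0.30 by limma and Benjamini-Hochberg, or 0.071 blocked by pair). Leaving out LPS library 2 gave -0.22, and without both libraries numbered 2 it was -0.29.

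Il1rn, which encodes the receptor antagonist, showed little difference. Its levels were 5.50, 8.25 and 4.99 FPKM in LPS libraries 1 to 3 and 4.74, 6.65 and 5.0 FPKM in ultrasound libraries 1 to 3. The third pair was level, at a ratio of 1.002, and the other pairs stood at 0.862 and 0.806. The log2 fold change of -0.15 ± 0.19 (SE; 95% interval -0.59 to 0.29; adjusted p = 0.72 by limma and Benjamini-Hochberg) was smaller than its error. It turned to 0.04 without LPS library 2. The interval includes differences as large as that of Il18, so similar levels of Il1rn in the groups were not shown.

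Il18bp, which encodes the IL-18 binding protein, was below the filter in every library. It stood at 0.744, 0.698 and 0.381 FPKM with LPS and at 0.785, 0.814 and 0.517 FPKM with ultrasound in libraries 1 to 3. Each pair had a ratio a little above 1, at 1.05, 1.17 and 1.35, and library 3 was the lowest of each group. Fitted without a filter, its log2 fold change was 0.09 ± 0.13 (SE; adjusted p = 0.79 by limma and Benjamini-Hochberg), and it turned to -0.02 without LPS library 3. In GENCODE M21, 80 of its exonic bases lie in exons of Numa1 on the opposite strand, a gene at 20.8 to 22.7 FPKM. Whether the authors' counting used strand is not given in the sources used here, so reads of those bases cannot be assigned. The antisense genes that share bases with Il1a, Il1b and Il1rap (Gm14023, Il1bos and Gm20319) were at most 0.177, 0.132 and 0.124 FPKM in any library.

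Il1rap, which encodes the accessory subunit used by the receptors for IL-1, IL-33 and IL-36, had the tightest groups. Levels were 3.27, 3.35 and 3.23 FPKM in LPS libraries 1 to 3 and 2.77, 2.54 and 2.75 FPKM in ultrasound libraries 1 to 3. Every ultrasound library lay below every LPS library. The log2 fold change was -0.22 ± 0.08 (SE; 95% interval -0.41 to -0.02; adjusted p = 0.29 by limma and Benjamini-Hochberg, or 0.13 blocked by pair). Leaving out LPS library 2 gave -0.21. GENCODE M21 lists 7 transcripts of this gene, from 583 to 4520 bases, which include shorter forms, and the deposited values do not separate them.

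**Figure D2:**
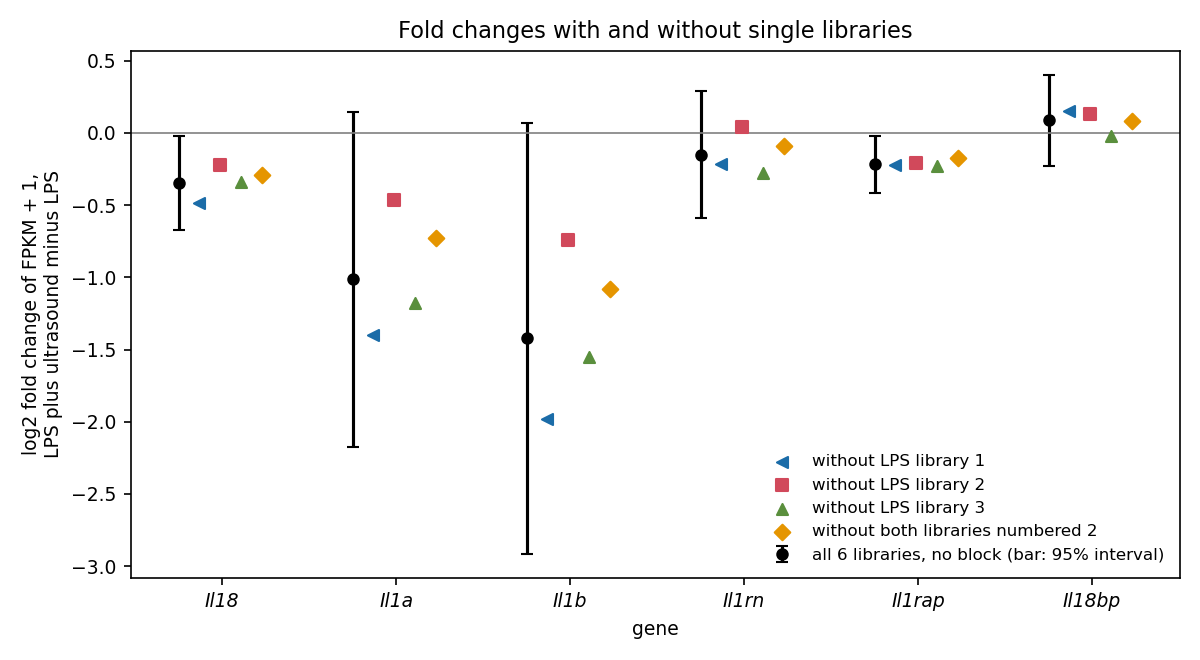
Log2 fold change of FPKM + 1, LPS plus ultrasound minus LPS, for each gene: black points with 95% intervals for all 6 libraries and coloured symbols for fits that leave out the libraries named in the legend. Without LPS library 2, Il1b moved from -1.42 to -0.74 and Il1a from -1.01 to -0.47, Il1rn crossed 0, and Il1rap stayed near -0.21.

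The libraries numbered 2 were high for the ligands in both groups. For Il1b, library 2 was 4.30 times the mean of libraries 1 and 3 with LPS and 2.30 times with ultrasound. The same values were 3.17 and 1.75 for Il1a, 1.57 and 1.36 for Il1rn, 1.30 and 1.16 for Il18, 1.24 and 1.25 for Il18bp, and 1.03 and 0.920 for Il1rap. The 2 secreted agonists of the IL-1 receptor therefore varied most between libraries of a group, with coefficients of variation of 92.0% (Il1b) and 73.3% (Il1a) with LPS and 52.5% and 35.6% with ultrasound. For Il1rap the coefficients were 1.95% and 4.74%.

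Ratios between genes were taken within each library. Il1rn over Il1b, antagonist to agonist, was 0.973, 0.228 and 0.446 in LPS libraries 1 to 3 and 1.52, 0.882 and 1.45 in ultrasound libraries 1 to 3. The antagonist RNA thus exceeded the agonist RNA in FPKM in 2 of 3 ultrasound libraries and in 0 of 3 LPS libraries. This split depends on the transcript lengths behind the FPKM, which are unknown, and 0.973 and 0.882 lie close to 1. GENCODE M21 lists 6 Il1rn transcripts of 321 to 2554 bases and 3 Il1b transcripts of 379 to 1356 bases. Which RNA was the more abundant was therefore not settled. The log2 ratio, with 0.1 FPKM added to both genes, had means of -1.10 ± 1.04 with LPS and 0.31 ± 0.43 with ultrasound (SD, n = 3), a difference of 1.42. It was higher in 3 of 3 pairs, and the groups overlapped. The exact two-sided permutation p was 0.2, where 3 against 3 libraries allow no p below 0.1.

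Il1rn over Il1a was 0.266, 0.106 and 0.176 with LPS and 0.366, 0.265 and 0.319 with ultrasound, a log2 difference of 0.88. Il18bp over Il18 differed by 0.56, Il1a over Il1b by 0.54 and Il1b over Il18 by -1.23 on the log2 scale. Each of the 5 ratios differed in 1 direction in 3 of 3 pairs, overlapped between the groups and had an exact permutation p of 0.2 (0.2 after Benjamini-Hochberg adjustment over the 5). The ratios share genes and are not 5 separate results. Without LPS library 2 the differences of Il1rn over Il1b, Il1rn over Il1a and Il1b over Il18 were 0.91, 0.53 and -0.64. Il18bp over Il18 differed by 0.29 without LPS library 3 and by 0.85 without LPS library 1.

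**Figure D3:**
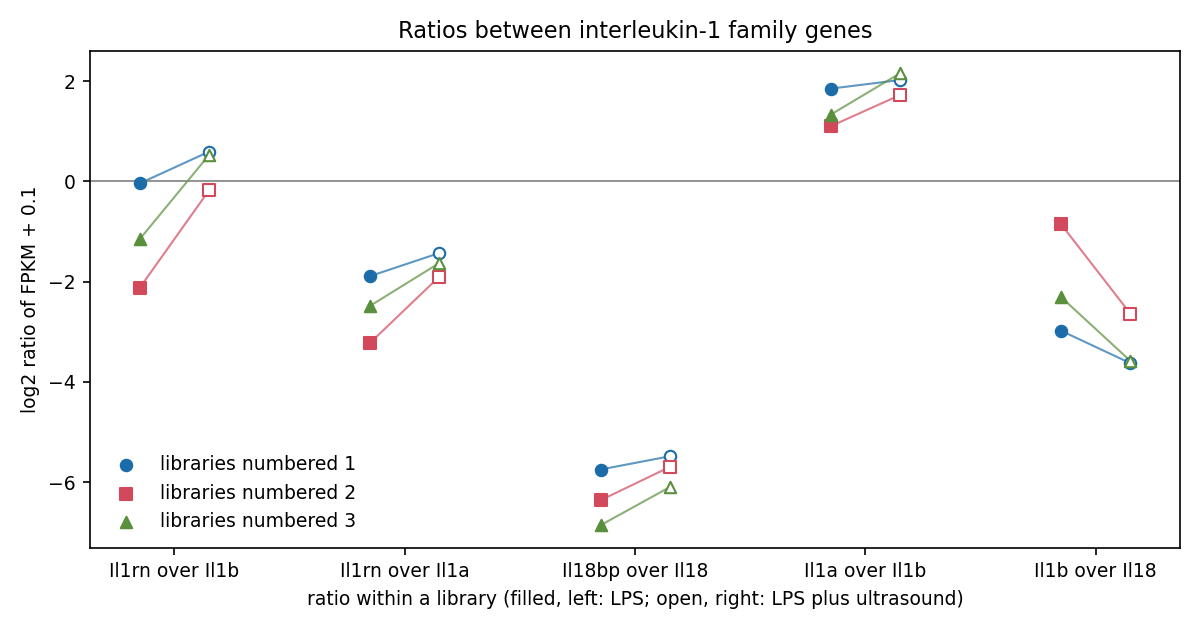
Log2 ratios of FPKM + 0.1 between genes of the same library, filled for LPS and open for LPS plus ultrasound, with lines joining libraries that share a number. All 3 lines of each ratio slope the same way, upward for the first 4 ratios and downward for Il1b over Il18, and in each ratio the groups overlap.

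The genes whose levels followed these members most closely were taken from 6536 or 6537 tested genes that averaged 5 FPKM or more, by Pearson correlation of log2(FPKM + 1) over the 6 libraries, which share the treatment split and the high LPS library 2. For Il1a they were Stk38l, Slc15a3 and Il1b (0.999, 0.997 and 0.993), and for Il1b Slc15a3, Zfp593 and Rps18 (0.998, 0.995 and 0.994). Rps18 has near-identical pseudogenes, so its value is uncertain. Slc15a3, a lysosomal peptide and histidine transporter gene, stood at 134, 199.7 and 148 FPKM in LPS libraries 1 to 3 and at 117, 139 and 119 in ultrasound libraries 1 to 3. For Il18 they were Stap1, Mllt6 and Tent5a, for Il1rn Tnfrsf11a and Mrpl57, and for Il1rap Rnf114, Prrc1 and Gtf2e2 (0.990 to 0.997 in all). With so many candidates and 6 libraries, such values are a description only.

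Among the other ligands of the family, Il36g, listed as Il1f9 and encoding IL-36γ, was the only one of 6 above the filter. It stood at 2.07, 2.55 and 1.49 FPKM in LPS libraries 1 to 3 and at 2.57, 3.87 and 2.80 FPKM in ultrasound libraries 1 to 3. The groups did not overlap and ultrasound was the higher, the opposite direction to Il1a, Il1b and Il18. Of the 11270 tested genes 1105 were higher with ultrasound without overlap. The log2 fold change of Il36g was 0.43 ± 0.17 (SE, adjusted p = 0.31 by limma and Benjamini-Hochberg, or 0.083 blocked by pair). Leaving out LPS library 2 gave 0.55. Il36a was 0.382 to 0.802 FPKM over the 6 libraries, and Il33, Il36b, Il36rn and Il1f10 were below 0.1 FPKM or listed at 0 in each of them.

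The receptors were unevenly present. Il18rap, the signalling partner subunit of the IL-18 receptor, was 8.24 to 11.4 FPKM over the 6 libraries, while Il18r1, the subunit that binds IL-18, was 0.00630 to 0.0528 FPKM. Il1r1, the signalling receptor for IL-1, stood at 1.07, 0.581 and 0.809 FPKM in LPS libraries 1 to 3 and at 0.779, 0.605 and 0.687 FPKM with ultrasound, and the decoy receptor gene Il1r2 did not exceed 0.116 FPKM. Of 9 receptor genes 3 were tested and 0 passed limma in either direction. Besides Il18rap (log2 fold change -0.20 ± 0.12) these were the IL-33 receptor gene Il1rl1 (0.09 ± 0.10) and Sigirr (-0.13 ± 0.14), which encodes an inhibitory receptor. Without ultrasound library 2 the value of Sigirr was 0.0057.

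Genes that act in processing and release showed no shared direction. Of 17 listed, 15 were tested, 10 had log2 fold changes below 0 and 5 above, and 0 passed limma, with a median of -0.06. Pycard, the gene for ASC, was listed at 0 in all 3 LPS libraries and at 0.0479, 0.0102 and 0.0194 FPKM in ultrasound libraries 1 to 3. All of these values lie far below the filter of 1 FPKM, and the difference was not tested. Casp1 was 29.2 to 36.4 FPKM over all 6 libraries. Nlrp3, the inflammasome sensor gene, stood at 28.7, 29.8 and 31.6 FPKM with LPS and at 32.7, 35.5 and 35.3 FPKM with ultrasound (log2 fold change 0.19 ± 0.07; adjusted p = 0.28 by limma and Benjamini-Hochberg), with groups that did not overlap and a direction opposite to that of Il1b. The calpain gene Capn2, of a protease family that cleaves the IL-1α precursor, had a log2 fold change of 0.32 ± 0.10. For Gbp5, an interferon-induced GTPase gene that promotes NLRP3 assembly, it was -0.95 ± 0.33, or -0.56 without LPS library 2.

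Downstream of the receptor, 17 signalling genes were tested, with 8 log2 fold changes below 0 and 9 above, a median of 0.01 and 0 genes past limma's threshold. Irak2, a kinase gene of the receptor complex, was 20.1, 28.4 and 21.1 FPKM with LPS and 14.4, 14.6 and 14.2 FPKM with ultrasound, without overlap. Its log2 fold change was -0.64 ± 0.13 (adjusted p = 0.17 by limma and Benjamini-Hochberg), or -0.49 without LPS library 2. The ubiquitin ligase gene Peli1 (-0.25 ± 0.08) was also lower without overlap, and the kinase gene Map3k7 (0.62 ± 0.25) higher without overlap. Map3k7 stood at 6.73, 5.21 and 6.45 FPKM with LPS and at 7.86, 15.7 and 7.83 FPKM with ultrasound, and its log2 fold change was 0.32 without ultrasound library 2.

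Transcription factor genes linked to the Il1b and Il1rn promoters were mostly lower with ultrasound, in 19 of 21, with a median log2 fold change of -0.23, where 53.9% of all tested genes were below 0. Of the 21, 0 passed limma and 8 had lower groups without overlap, against 13.4% of all tested genes. Atf3, a stress-induced factor gene, was 125, 217 and 118 FPKM with LPS and 72.9, 83.2 and 68.7 FPKM with ultrasound (log2 fold change -0.97 ± 0.22; adjusted p = 0.18 by limma and Benjamini-Hochberg). Nfkbiz, encoding an NF-kB cofactor, and Bhlhe40, a repressor gene, had log2 fold changes of -0.64 ± 0.15 and -0.64 ± 0.17. With LPS library 2 left out the values of Atf3, Nfkbiz and Bhlhe40 were -0.70, -0.50 and -0.52.

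Regulators of message turnover showed no shared direction, with 6 of 14 below 0, a median log2 fold change of 0.03 and 0 past limma's threshold. In all 3 same-numbered pairs 7 of the 14 were higher with ultrasound and 4 lower, against 2740 and 3488 of the 11270 tested genes. The decay factor gene Khsrp (-0.14 ± 0.07) was lower without overlap, and Hnrnpd (0.14 ± 0.08) and the deadenylase gene Cnot8 (0.14 ± 0.08) had overlapping groups.

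The interleukin-1 ligands were set beside 13 tested LPS-induced cytokine and mediator genes. Of those 13, 12 had log2 fold changes below 0, where 53.9% of all tested genes were below 0. One of the 12, Acod1 (-0.47), turned to 0.12 without LPS library 2. The 13 had a median of -0.84 and a lowest value of -1.67 for Ptgs2, the inducible cyclooxygenase gene. In limma 0 of the 13 passed. With the block 2 did, the chemokine genes Ccl4 (-1.29) and Ccl5 (-0.84), against 0.115% of all tested genes in either direction. Both were named after their values were seen. Il1b (-1.42) and Il1a (-1.01) lay between that lowest value and the median, while Il18 (-0.35) and Il1rn (-0.15) lay above the median. Without LPS library 2 that median was -0.49, and Il1a, at -0.47, then lay just above it, while Il1b, at -0.74, stayed below. Over all 6 libraries, the log2 fold changes were -0.77 ± 0.38 for Tnf and -0.66 ± 0.51 for Il6, and -0.57 ± 0.10 and -0.92 ± 0.26 for the interleukin genes Il23a and Il27. With LPS library 2 left out they were -1.19 for Ptgs2, -0.32 for Tnf, -0.22 for Il6, -0.56 for Il23a, -0.62 for Il27, -0.73 for Ccl4 and -0.37 for Ccl5. The blocked calls of Ccl4 and Ccl5 were not tested with a library left out. Without ultrasound library 2 the values of Il6 and Ccl5 were -1.15 and -1.28.

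**Figure D4:**
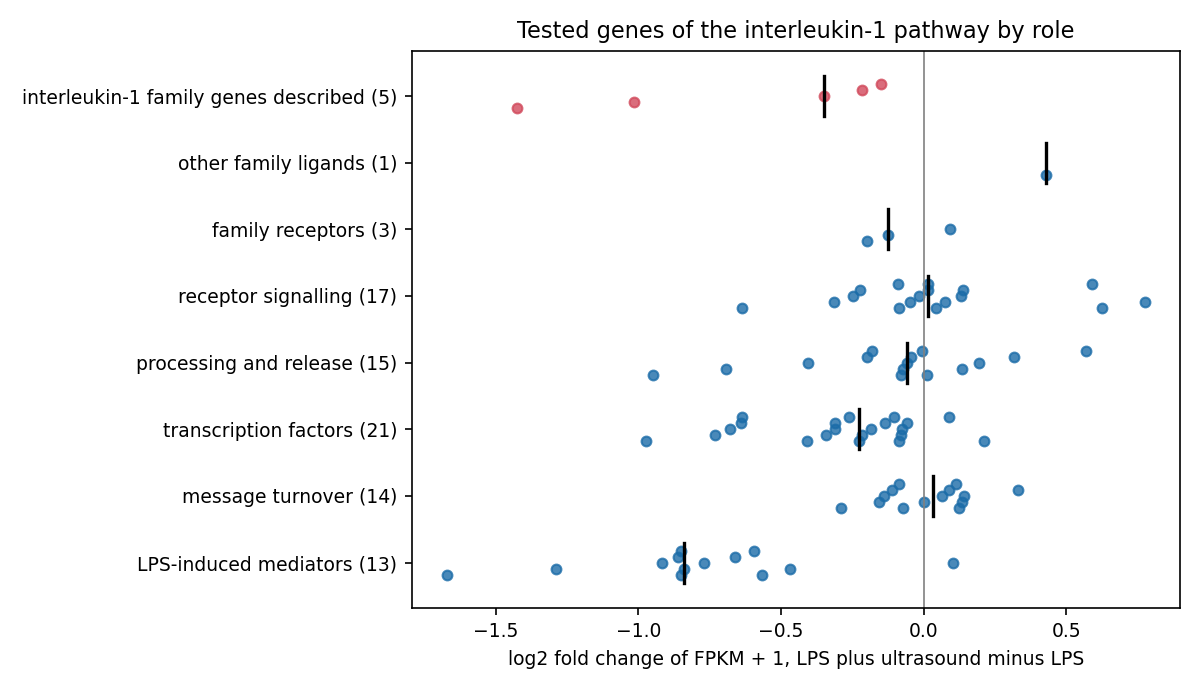
Log2 fold change of FPKM + 1, LPS plus ultrasound minus LPS, for each tested gene by role, with the number tested in parentheses and a vertical bar at the median of each list. The transcription factor and LPS-induced lists have medians of -0.23 and -0.84, while receptor signalling, processing and message turnover lie around 0.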

How the data were processed

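The deposited table holds FPKM, computed by the authors, for 55335 mouse Ensembl identifiers in 6 libraries of poly(A) RNA sequenced as paired ends, per the labels. No source used here gives the aligner or the mouse annotation. All identifiers are mouse ones, although mRatBN7.2, a rat assembly, stands in the submitters' processing notes and a rat muscle in the labels' protocols. Symbols came from GENCODE M21 (55154 matched), and older family names from RefSeq. Each column was tied to the title with its initial letter and number. Low FPKM times transcript length piled up at steps that would mean 25100000 to 29500000 fragments per library, but only 31.1% to 33.7% of low values lay within 0.05 of whole steps, so counts were not recovered and depth, and with it counting error, is unknown.

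Genes that averaged 1 FPKM or more were kept (11270 tested, 44065 removed). limma 3.58.1 in R 4.3.3 was run on log2(FPKM + 1) over all of them, with trend and robust moderation, two-sided, Benjamini-Hochberg adjustment and a threshold of 0.05. Il18bp was read from the same fit without a filter. The self-test on simulated data was run first. Same-numbered libraries had deviations from their group means correlated at 0.18, 0.44 and 0.41 across genes. The labels do not state pairs, so the pairing rests on the shared numbers in the titles and on these same data. Blocked p-values depend on that choice. The fit with the replicate block is given where it bears on a result. Ratios used 0.1 FPKM added to each gene and exact permutation tests over 20 splits. Promoter windows are from RefSeq GRCm38.p6. Besides the 6 members and Tnf, Il6 and Ptgs2, the text names up to 3 genes with the smallest p of each of 7 lists and 3 genes of like pattern per tested member, of which 1 is not reported here; Pycard, Casp1, the Il18 and Il1 receptor genes and the other family ligands below the filter were named after their values were seen. The members and lists were chosen with earlier results of these data known. Alternatives were the pseudocount, filter, scaling, moderation, sample weights, block and left-out libraries.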

Additional observations from a re-analysis of the deposited data

How the results depend on the processing

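Of the alternatives run, none took any of the 6 genes past the adjusted threshold, and 3 scalings, 2 pseudocounts and sample weights left the direction of each in place. With every replicate number present in both groups, the replicate block leaves each fold change as it is by construction, so it bears on p-values alone. Direction turned only for Il1rn without LPS library 2 (0.0386) and for Il18bp without LPS library 3 (-0.0182), each a fit with 1 library left out. With one library left out, log2 fold changes ran from -1.98 to -0.74 for Il1b, -1.40 to -0.47 for Il1a, -0.485 to -0.224 for Il18, -0.28 to 0.04 for Il1rn, -0.23 to -0.19 for Il1rap and -0.02 to 0.17 for Il18bp. The count of genes with separate, lower groups went from 1 to between 1 and 4 with 1 library left out. It was 4 without LPS library 1, without ultrasound library 2 and without both libraries numbered 2. Groups of fewer libraries separate more readily, and the share of all tested genes with this pattern was not computed for these fits. The 13.4% given above holds for 3 against 3 libraries only, so a count of 4 is not a stronger result. Over all genes, 2 were called, against 1 with a filter of 5 FPKM, 5 with each library scaled to the same sum, 13 with the replicate block (4 higher and 9 lower), 223 with sample weights, 2 to 8 with one library left out and 6 without both libraries numbered 2. The replicate block changed no call of the 6 genes, and sign flips over the 3 pairs, which allow no exact p below 0.25, gave 0.25 for each of the 5 ratios. Il18bp has no value under either filter, and Il1rap none under that of 5 FPKM. Causes of these moves were not tested. Il18bp and Il1rap lie low in the range, where the precision that depth allows is unknown.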
